A study of Homo sapiens with 3 samples.

Results

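The genes described here repair damaged or mispaired bases and rejoin broken DNA ends outside homologous recombination. They are 35 genes, each found as 1 row by its symbol, of 57736 gene rows in a table of estimated counts from RNA sequencing, with pseudogene rows and PMS2-like rows left out. The RNA came from TOV21G, a human line of ovarian clear cell carcinoma that carries a mutation in ARID1A, a gene for a DNA-binding part of SWI/SNF chromatin remodellers. All groups share this line and its ARID1A mutation. The group labelled WT is 1 library of cells with intact HDAC2 (n = 1), and the HDAC2 knockdown group is 2 libraries (n = 2), 1 for each of 2 lentiviral short hairpin RNAs, shRNA 1 and shRNA 2. HDAC2 is a class I histone deacetylase. The labels name no control virus for WT, so knockdown and transduction cannot be told apart, and the labels do not say that a hairpin was tested in more than 1 culture. The p-values therefore rest on the spread between the hairpin libraries, which for each gene is drawn mostly from all genes together. A gene has 1 residual degree of freedom of its own against a prior of 18.9 learned over all genes. The gap between the hairpins in a single gene thus weighs little in its p-value. WT, being 1 library, gives no spread of its own, which is taken to be like that of the knockdown.

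Mismatch repair removes bases mispaired during replication, through MutS proteins that find the mismatch and MutL proteins that direct the cut. In base excision repair a glycosylase cuts out a damaged base, an endonuclease opens the strand, a polymerase fills the gap and a ligase seals it. Nucleotide excision repair cuts out a stretch around a bulky lesion, and nonhomologous end joining ligates the ends of a broken chromosome held by the Ku heterodimer. Many of these genes are expressed in dividing and resting cells alike, whereas some partners that they share with DNA replication follow the cell cycle.

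The knockdown was visible in the targeted gene. HDAC2 stood at 105 CPM (the count scaled to the normalised total of its library) in WT, 33.4 CPM with shRNA 1 and 51.6 CPM with shRNA 2, a log2 change of −1.31 ± 0.20 (SE; adjusted p = 4.82e-04). Here and below the test is the quasi-likelihood test of edgeR with p adjusted by Benjamini-Hochberg over all genes tested, and a gene is called at an adjusted p under 0.05. The libraries held 10138479 to 11398791 counts. Of markers of the line, PAX8, a transcription factor of Müllerian epithelium, measured 263 CPM in WT, 250.5 CPM with shRNA 1 and 174 CPM with shRNA 2. The epithelial keratin KRT18 measured 475, 431 and 481 CPM in the same order, and neither these nor KRT7, KRT8 and EPCAM passed the test. Of 6 matched markers of leukocytes, endothelium and fibroblasts, CD3E had 0 counts in all libraries and PTPRC and VWF at most 2. Their summed level was 15.9 CPM in WT, 24.5 CPM with shRNA 1 and 38.6 CPM with shRNA 2. COL1A2 measured 8.73, 19.2 and 29.6 CPM of these and rose (log2 change 1.48 ± 0.27, SE), whereas COL1A1 measured 6.72, 4.71 and 7.87 CPM, on either side of WT (log2 change −0.10 ± 0.34, SE). The part of these cells or genes in the results below was not tested.

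Of the 35 repair genes, 2 rose, 2 fell and 31 did not pass the test, so 11.4% were called against 7.72% of the 14524 genes tested (3.96% upwards and 3.76% downwards). Under other fits the calls among the 35 were 5 with library size alone (10.1% of all genes) and 1 with a trend in GC content removed (3.83%). With no filter on low counts edgeR called 0 (0% of 23698 genes). DESeq2's Wald test called 0 of the 24 members for which it gave an adjusted p (3.94% of 7766 genes). At an unadjusted p below 0.05 DESeq2's Wald test gave 5 of the 35 (14.3%, against 10.2% of the 14524 genes). The edgeR fit with no filter gave 8 (22.9%, against 10.5% of 23698 genes). All 35 passed the filter on low counts, which many of the 23698 did not, so the last shares are not over like genes. In the main fit the shares were 28.6% of the 35 and 23.5% of the 14524 genes. The rising genes were LIG4, the ligase of nonhomologous end joining, and TDG, a glycosylase that removes thymine mispaired with guanine and oxidised forms of methylcytosine. The falling genes were PARP1, the polymerase that marks strand breaks with poly(ADP-ribose), and XRCC1, the scaffold that gathers the repair of single-strand breaks at those marks. The median log2 change of the 35 genes was −0.06, against 0.01 over all genes tested. In the knockdown 27 of the 35 (77.1%) lay within 0.5 of 0 on the log2 scale, as did 73.1% of all genes tested. RNA was measured in bulk, so fewer cells with a transcript and less of it per cell cannot be told apart.

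The stretch of 250 bases before the most upstream RefSeq start of each called gene is printed here, since these 4 genes carry the calls (GRCh38.p14, 5′ to 3′ on the strand of the gene). Capitals mark matches, on either strand, to 3 elements known from cell cycle promoters. The E2F core was searched for as TTCGCGC and in a second form as TTGGCGC, the CHR element as TTTGAA and the CCAAT box by its name. The second E2F form shares letters with the reverse of the CCAAT box, so that matches of these can overlap. LIG4 lies at chr13:108218350-108218599 on the minus strand, TDG at chr12:103965622-103965871 on the plus strand, PARP1 at chr1:226408094-226408343 and XRCC1 at chr19:43575528-43575777, both on the minus strand.
LIG4: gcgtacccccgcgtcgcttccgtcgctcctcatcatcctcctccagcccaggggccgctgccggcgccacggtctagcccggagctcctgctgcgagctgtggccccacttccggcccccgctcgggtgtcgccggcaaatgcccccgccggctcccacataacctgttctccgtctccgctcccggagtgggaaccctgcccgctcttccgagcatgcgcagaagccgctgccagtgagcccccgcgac
TDG: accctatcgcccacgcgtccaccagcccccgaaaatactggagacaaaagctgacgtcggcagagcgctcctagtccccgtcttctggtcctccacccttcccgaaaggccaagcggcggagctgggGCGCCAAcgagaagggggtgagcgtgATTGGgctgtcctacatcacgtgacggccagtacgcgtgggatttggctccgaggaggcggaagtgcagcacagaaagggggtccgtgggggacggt
PARP1: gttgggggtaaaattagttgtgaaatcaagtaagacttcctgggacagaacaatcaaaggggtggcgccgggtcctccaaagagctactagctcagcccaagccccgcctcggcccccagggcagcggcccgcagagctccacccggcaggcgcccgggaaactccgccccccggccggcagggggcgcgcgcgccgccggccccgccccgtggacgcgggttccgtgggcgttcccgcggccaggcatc
XRCC1: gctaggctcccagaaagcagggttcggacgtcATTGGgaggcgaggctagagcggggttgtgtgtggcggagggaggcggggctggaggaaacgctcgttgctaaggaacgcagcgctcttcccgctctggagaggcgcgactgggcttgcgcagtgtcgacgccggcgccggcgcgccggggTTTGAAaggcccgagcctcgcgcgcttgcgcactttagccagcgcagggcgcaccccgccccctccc
The windows of LIG4 and PARP1 held none of these letters. TDG held 1 E2F core and 1 CCAAT box, and XRCC1 held 1 CHR element and 1 CCAAT box. Thus neither the rising nor the falling pair shared a motif of this search. Such windows were found for 32 of the 35 genes. The E2F core was in 6 of them (MSH3, PMS1, OGG1, UNG, TDG and ERCC3) and in 4.29% of 27305 windows of all genes. The CHR element was in 2 (XRCC1 and ERCC6) and in 13.6% of all windows, and the CCAAT box in 15 and in 33.0% of all windows. A match is a description of the letters and not a binding site.

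**Figure D1:**
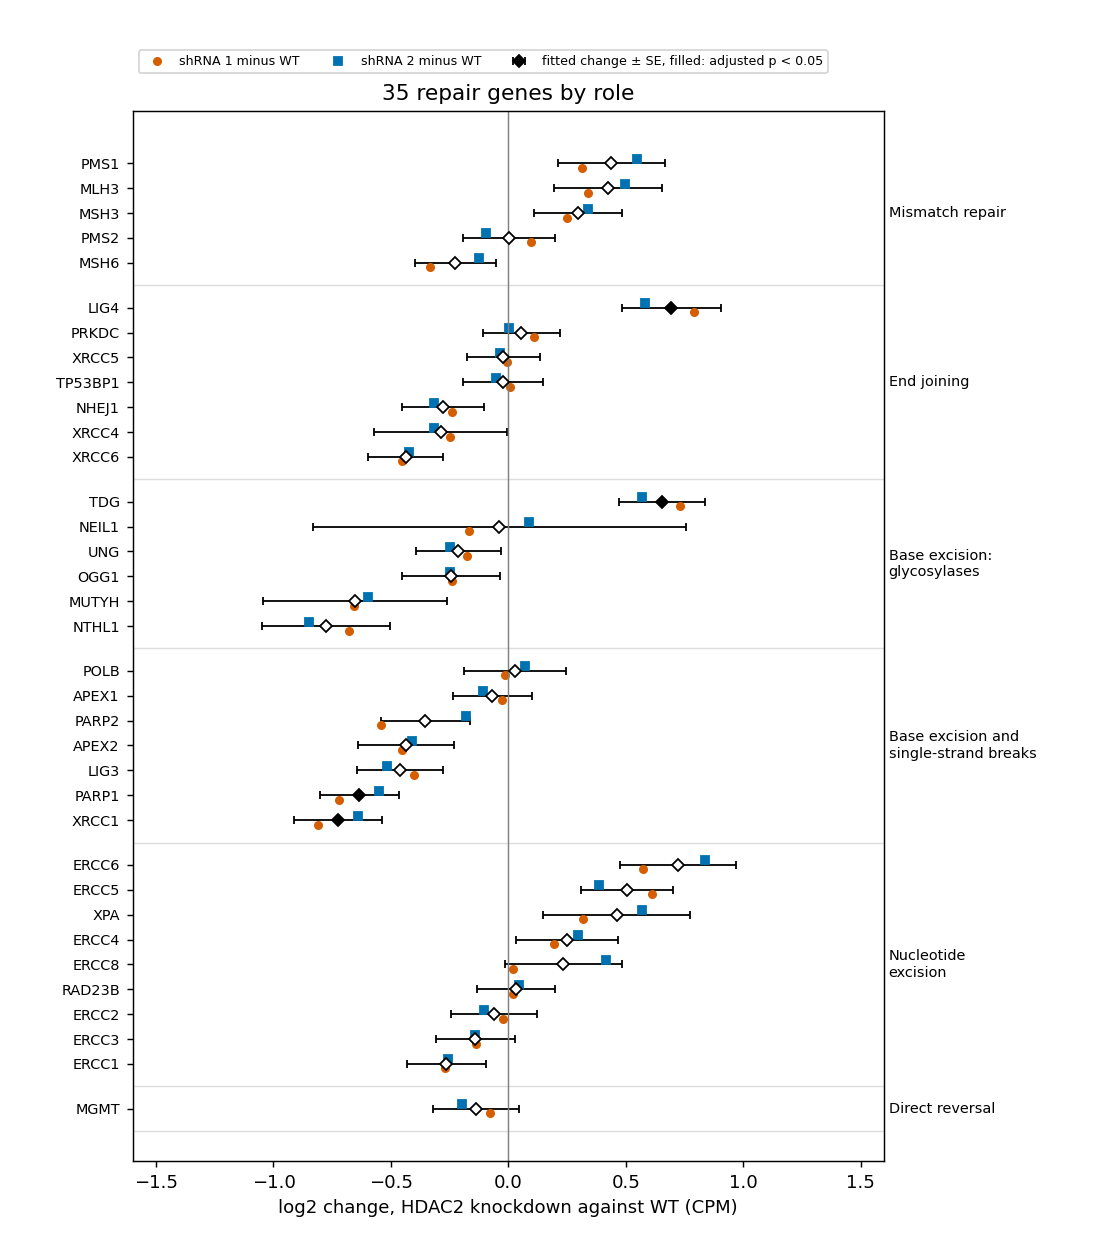
Log2 change of each of the 35 repair genes in HDAC2 knockdown against WT, grouped by role. Circles (shRNA 1) and squares (shRNA 2) are single libraries minus WT, and diamonds are the fitted change with its SE, filled for the 4 genes with an adjusted p below 0.05; the changes run from −0.78 (NTHL1) to 0.72 (ERCC6).

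Among the mismatch repair genes 0 of 5 passed the test. The MutL genes PMS1 and MLH3 and the MutS gene MSH3 lay above WT with both hairpins, whereas MSH6 lay below WT with both. PMS1 stood at 13.4 CPM in WT, 16.8 CPM with shRNA 1 and 19.7 CPM with shRNA 2, the highest change of the group at 0.44 ± 0.23 (log2, SE; adjusted p = 0.252 by edgeR's quasi-likelihood test). MLH3, a MutL partner with a nuclease function, measured 11.8, 15.0 and 16.8 CPM in WT, shRNA 1 and shRNA 2 (log2 change 0.43 ± 0.23, SE). MSH3, which recognises insertion and deletion loops, measured 31.7, 37.7 and 40.1 CPM (0.30 ± 0.19, SE). In each of these genes WT was the lowest library, by less than the test required. MSH6, which recognises single mispairs, measured 90.1, 71.4 and 82.7 CPM in the same order (log2 change −0.23 ± 0.17, SE; adjusted p = 0.462, edgeR). WT was its highest library, and shRNA 2 reached 91.8% of it. PMS2, the main MutL nuclease, measured 29.8, 31.8 and 27.9 CPM, so its knockdown libraries lay on either side of WT (0.0027 ± 0.20, SE). PMS2 shares 14.7% of its 75-base sequences (the read length) with other genes, mainly its copy PMS2CL, and the sum of both changed by 0.13 on the log2 scale.

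MSH3 and MSH6 compete for a common MutS partner, so their ratio was followed, as 1 of 8 ratios of partner genes. The ratio of MSH6 to MSH3 counts was 2.84 in WT (95% Wilson counting interval 2.50 to 3.23), 1.89 (1.69 to 2.13) with shRNA 1 and 2.06 (1.84 to 2.30) with shRNA 2. The WT interval did not overlap those of the knockdown libraries. Such intervals cover counting error only, and no test of these ratios over libraries was run. Of the exonic bases of MSH6, 16.2% lie under FBXO11 on the other strand, which had 414 counts in WT and 606 in each knockdown library, and no source used here gives the strand setting of the counting.

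In end joining 1 of 7 genes rose and 0 fell. LIG4 had 192 counts in WT, 383 with shRNA 1 and 327 with shRNA 2, or 19.3, 33.4 and 28.9 CPM. Both knockdown libraries were thus above WT, at 173% and 150% of it. The log2 change was 0.69 ± 0.21 (SE; adjusted p = 0.0480 by edgeR's quasi-likelihood test), which is close to the threshold. The call was lost in 6 of 8 other fits, with DESeq2 size factors for example (adjusted p = 0.0559), and once the GC trend was taken out the change was 0.32 (adjusted p = 0.462, edgeR). XRCC4, the partner that stabilises LIG4, did not follow it, with 85, 82 and 77 counts or 8.53, 7.15 and 6.81 CPM in WT, shRNA 1 and shRNA 2 (log2 change −0.29 ± 0.28, SE). The ratio of LIG4 to XRCC4 counts was 2.26 in WT (95% counting interval 1.75 to 2.91), 4.67 (3.68 to 5.93) with shRNA 1 and 4.25 (3.32 to 5.44) with shRNA 2. The ratio of both knockdown libraries lay above the counting interval of WT, which covers counting error only and no spread between libraries.

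Of the genes for the Ku subunits 0 passed the test. XRCC6, which encodes Ku70, measured 493 CPM in WT, 360.3 CPM with shRNA 1 and 367 CPM with shRNA 2. Both hairpins gave values near 74% of WT, at 73.1% and 74.6%, yet the log2 change of −0.44 ± 0.16 (SE) did not pass the test (adjusted p = 0.0976, edgeR). XRCC5, which encodes Ku80, measured 656, 653 and 640 CPM (log2 change −0.02 ± 0.15, SE), so its libraries were level. XRCC6 counts per XRCC5 count were 0.751 in WT (95% counting interval 0.724 to 0.780), 0.552 (0.531 to 0.573) with shRNA 1 and 0.575 (0.553 to 0.597) with shRNA 2. The processed copy XRCC6P2, which shares 5.08% of the 75-base sequences of XRCC6, had at most 1 count in each library. PRKDC, the DNA-dependent protein kinase that Ku recruits, measured 326, 351 and 326 CPM (0.06 ± 0.17, SE). TP53BP1, which protects ends from resection, measured 94.3, 94.7 and 90.9 CPM (−0.02 ± 0.17, SE). Of the exonic bases of TP53BP1, 28.7% lie under TUBGCP4 on the other strand, with 522, 430 and 500 counts. NHEJ1, the XLF protein that aligns ends, was lower with both hairpins at 57.6, 48.8 and 46.2 CPM (−0.28 ± 0.17, SE; adjusted p = 0.353, edgeR). NHEJ1 shares 60.6% of its 75-base sequences with a second annotated gene, for which the deposited counts hold no row.

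**Figure D2:**
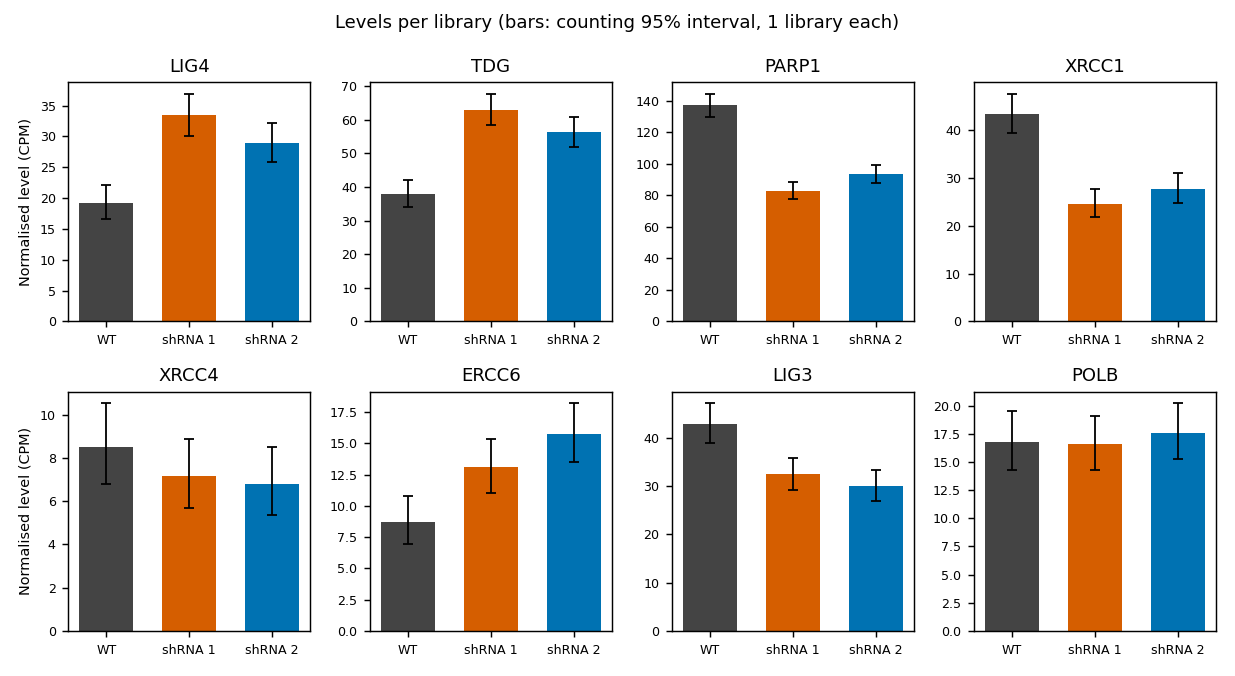
Normalised level (CPM, linear axis from 0) of the called genes (upper row) and of XRCC4, ERCC6, LIG3 and POLB (lower row) in the 3 libraries. Error bars are exact Poisson 95% intervals of the count of that library; LIG4 and TDG are lowest in WT, PARP1 and XRCC1 highest in WT, and the XRCC4 and POLB intervals of all libraries overlap.

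Of the 6 glycosylases 1 rose and 0 fell. TDG had 378 counts in WT, 722 with shRNA 1 and 637 with shRNA 2, or 37.9, 63.0 and 56.3 CPM. Its knockdown libraries stood at 166% and 149% of WT. Both were thus above the 1 WT library, as in 39.9% of all genes tested. The log2 change was 0.65 ± 0.18 (SE; adjusted p = 0.0330 by edgeR's quasi-likelihood test). With the GC trend removed it was 0.39, and the call was lost (adjusted p = 0.257, edgeR). The pseudogene TDGP1 had at most 1 count per library, and adding it gave a change of 0.65. NTHL1, a glycosylase for oxidised pyrimidines, had the lowest change of all 35 genes. It measured 11.1, 6.89 and 6.10 CPM from 111, 79 and 69 counts, at 61.9% and 54.8% of WT (log2 change −0.78 ± 0.27, SE; adjusted p = 0.0860, edgeR), and did not pass the test. Of its exonic bases 16.5% lie under TSC2 on the other strand, which had 264, 298 and 305 counts. MUTYH, which removes adenine opposite oxidised guanine, was also low in both knockdown libraries, with 49, 35 and 36 counts (−0.65 ± 0.39, SE). TOE1 covers 14.1% of its exonic bases on the other strand and had 243, 176 and 194 counts.

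The remaining glycosylases differed less. OGG1, which removes oxidised guanine itself, measured 22.0, 18.6 and 18.5 CPM (−0.25 ± 0.21, SE), and UNG, which removes uracil, 43.9, 38.8 and 37.0 CPM (−0.21 ± 0.18, SE). Neither passed the test, and WT was the highest library in each. CAMK1 lies over 24.96% of the exonic bases of OGG1 on the other strand, with 224, 260 and 245 counts. NEIL1, another glycosylase for oxidised bases, had 9, 9 and 11 counts, too few for a change to be detectable at this depth (−0.04 ± 0.79, SE). MAN2C1 lies over 26.4% of the exonic bases of NEIL1 on the other strand, with 80, 95 and 93 counts.

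The genes downstream of the glycosylases had the lowest median of the larger role groups, −0.43, with 2 of 7 falling and 0 rising. With the GC trend removed that median was −0.44. PARP1 measured 137 CPM in WT, 83.1 CPM with shRNA 1 and 93.5 CPM with shRNA 2, from 1366, 952 and 1057 counts. Both knockdown libraries were below WT, at 60.6% and 68.2% of it (log2 change −0.63 ± 0.17, SE; adjusted p = 0.0256 by edgeR's quasi-likelihood test). Of the 4 called genes PARP1 alone passed with the GC trend removed, at −0.61 (adjusted p = 0.0462, edgeR). XRCC1 measured 43.2, 24.6 and 27.7 CPM from 431, 282 and 313 counts, at 56.9% and 64.0% of WT. Its log2 change was −0.73 ± 0.19 (SE; adjusted p = 0.0221, edgeR's quasi-likelihood test), and −0.50 with the GC trend removed, where the call was lost (adjusted p = 0.153, edgeR).

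The partners of XRCC1 did not all move with it. LIG3, the ligase bound to XRCC1, measured 42.9, 32.5 and 30.0 CPM (−0.46 ± 0.18, SE; adjusted p = 0.132, edgeR), below WT with both hairpins. Of the exonic bases of LIG3, 29.1% lie under RFFL on the other strand, with 357, 376 and 351 counts. POLB, the polymerase that fills the gap and binds XRCC1, measured 16.8, 16.6 and 17.6 CPM (0.03 ± 0.22, SE), on either side of WT. The ratio of XRCC1 to POLB counts was 2.58 in WT (95% counting interval 2.16 to 3.08), 1.48 (1.24 to 1.78) with shRNA 1 and 1.57 (1.32 to 1.88) with shRNA 2. LIG3 counts per XRCC1 count were 0.993 in WT (0.869 to 1.14), 1.32 (1.13 to 1.54) with shRNA 1 and 1.08 (0.929 to 1.26) with shRNA 2, so the WT interval overlapped both, that of shRNA 1 at its edge. LIG4 counts per LIG3 count were 0.449 (0.379 to 0.532), 1.0296 (0.893 to 1.19) and 0.965 (0.829 to 1.12), higher in both knockdown libraries than the WT interval. PARP1 counts per PARP2 count were 2.82 (2.54 to 3.13), 2.50 (2.22 to 2.81) and 2.18 (1.96 to 2.43), lower than that interval with shRNA 2 and overlapping it with shRNA 1. PARP2, which shares the task of PARP1, differed most between the hairpins of this group, at 48.6 CPM in WT, 33.2 CPM with shRNA 1 and 42.8 CPM with shRNA 2 (−0.35 ± 0.19, SE). Of the endonucleases that open the strand, APEX1 was level at 201, 197 and 187 CPM (−0.07 ± 0.17, SE). The minor endonuclease APEX2 was lower with both hairpins, at 25.9, 18.8 and 19.5 CPM (−0.43 ± 0.20, SE; adjusted p = 0.202, edgeR).

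**Figure D3:**
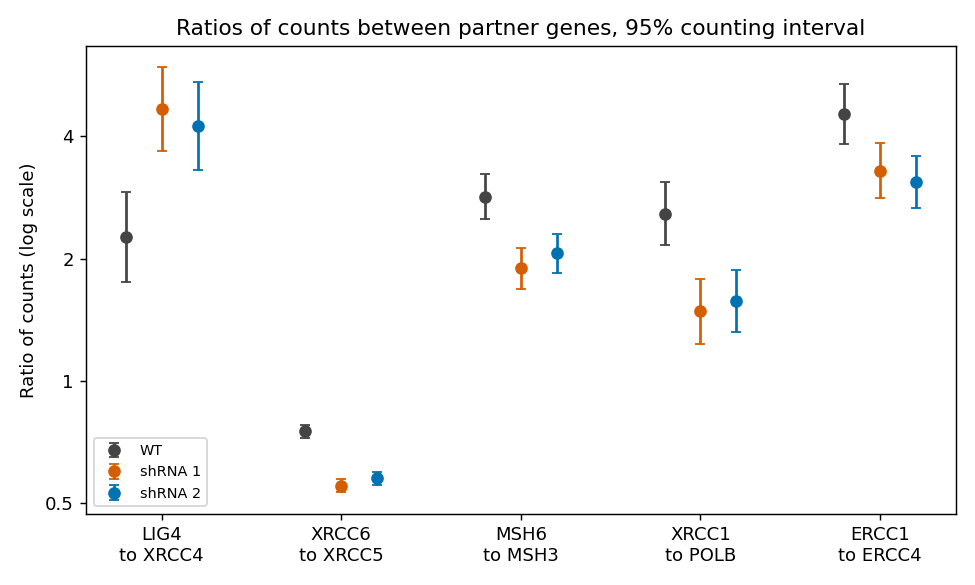
Ratio of counts between partner genes in each library (log axis), with 95% Wilson counting intervals. The LIG4 to XRCC4 ratio is 2.26 in WT, 4.67 with shRNA 1 and 4.25 with shRNA 2, and the other 4 ratios plotted are lower in both knockdown libraries than in WT.

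In nucleotide excision repair 0 of 9 genes passed the test, with a median log2 change of 0.23. That median was −0.0064 with the GC trend removed. ERCC6, the CSB protein that clears stalled RNA polymerase, had the highest change of all 35 genes. It measured 8.73, 13.1 and 15.7 CPM in WT, shRNA 1 and shRNA 2, from 87, 150 and 178 counts, at 149.9% and 180.4% of WT (log2 change 0.72 ± 0.25, SE; adjusted p = 0.0781, edgeR). WT was the lowest library, but the change did not pass. ERCC8, its partner CSA, measured 10.83, 10.99 and 14.50 CPM (0.23 ± 0.25, SE) and had the widest gap between the hairpins of all 35 genes, 0.39 on the log2 scale. It shares 24.1% of its 75-base sequences, through the pseudogene GNL3LP1, which had 40, 35 and 40 counts, and the sum of both changed by 0.11 on the log2 scale (adjusted p = 0.818, edgeR).

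Of the lesion binding proteins, XPA was above WT with both hairpins at 5.42, 6.80 and 8.14 CPM (0.46 ± 0.31, SE). RAD23B, which stabilises the damage sensor, was level at 252, 255 and 259 CPM (0.03 ± 0.17, SE). The helicases of the repair factor TFIIH also stayed near WT, with ERCC2 (XPD) at 40.6, 40.0 and 37.8 CPM (−0.06 ± 0.18, SE) and ERCC3 (XPB) at 88.2, 80.1 and 79.9 CPM (−0.14 ± 0.17, SE). ERCC5 (XPG), the nuclease that cuts on the 3′ side, measured 28.6, 43.8 and 37.4 CPM (0.51 ± 0.19, SE; adjusted p = 0.118, edgeR). ERCC5 shares 61.9% of its 75-base sequences with the read-through BIVM-ERCC5, which had 608, 769 and 741 counts. Summed with it and with BIVM, the counts were 1274, 1958 and 1748 and the change was 0.35 (adjusted p = 0.237, edgeR).

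The nuclease of the 5′ side is a pair of ERCC1 and ERCC4 (XPF). ERCC1 had the lowest change of the nucleotide excision genes, at 73.5, 61.0 and 61.5 CPM (−0.26 ± 0.17, SE; adjusted p = 0.366, edgeR), and ERCC4 measured 16.2, 18.5 and 19.9 CPM (0.25 ± 0.22, SE). The ratio of ERCC1 to ERCC4 counts was 4.55 in WT (95% counting interval 3.84 to 5.40), 3.30 (2.83 to 3.84) with shRNA 1 and 3.09 (2.66 to 3.59) with shRNA 2. The WT interval reaches to the upper bound of shRNA 1. Genes on the other strand cover 28.6% of the exonic bases of ERCC1 and 25.7% of those of ERCC4. MGMT, which reverses alkylation of guanine directly, measured 41.6, 39.4 and 36.3 CPM (−0.14 ± 0.18, SE; adjusted p = 0.701, edgeR), below WT with both hairpins.

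Levels also set these genes apart from each other. Per kilobase of the longest coding transcript, XRCC6 was the highest in WT at 182 CPM per kb, followed by XRCC5 at 174 and APEX1 at 136 CPM per kb. In the knockdown libraries XRCC5 was the highest, at 174 and 170.1 CPM per kb, with XRCC6 at 133 and 136. RAD23B followed at 61.1 CPM per kb in WT and PARP1 at 34.6, which became 21.0 and 23.6 in the knockdown. NEIL1 was the lowest at 0.240 CPM per kb in WT, then ERCC6 at 1.09 and MLH3 at 1.499 CPM per kb.

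Across the 35 genes, 12 were above WT in both knockdown libraries (34.3%, against 39.9% of all genes tested), 19 were below it in both (54.3%, against 39.3%), and 4 (PMS2, TP53BP1, NEIL1 and POLB) lay on either side. The hairpins gave like values, with a median gap of 0.11 between them on the log2 scale. With shRNA 2, 18 genes were higher than with shRNA 1 and 17 were lower, and 0 genes lay on opposite sides of WT by 0.5 or more. At an unadjusted p below 0.05, 10 of the 35 genes passed (28.6%, against 23.5% of all genes tested), 4 upwards and 6 downwards.

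The direction of change moved with the base composition of the transcripts. GC content of the 12 genes above WT in both libraries ran from 36.2% to 45.3% (median 41.8%), and that of the 19 genes below WT from 36.7% to 63.8% (median 50.7%). LIG4 (36.2%) and TDG (39.5%) are poor in GC, PARP1 (49.6%) is near the median of 48.3% for all genes tested, and XRCC1 (58.3%) is rich in GC. Over all genes tested the median log2 change was 0.32 in the lowest of 5 bins of GC content and −0.28 in the highest. Of the 7 members in the lowest bin 5 had a positive change, and in the bins above it these were 8 of 11, 1 of 8, 0 of 4 and 0 of 5. The members of the lowest bin with a negative change were XRCC4 (36.7%) and MSH6 (40.8%). Further members under the median GC content that were below WT with both hairpins were XRCC5 (44.2%), PARP2 (45.3%) and LIG3 (47.7%). Taking out the GC trend gave XRCC4 and MSH6 log2 changes of −0.65 and −0.46, against −0.29 and −0.23 before, and neither passed the test. What sets the trend was not tested.

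**Figure D4:**
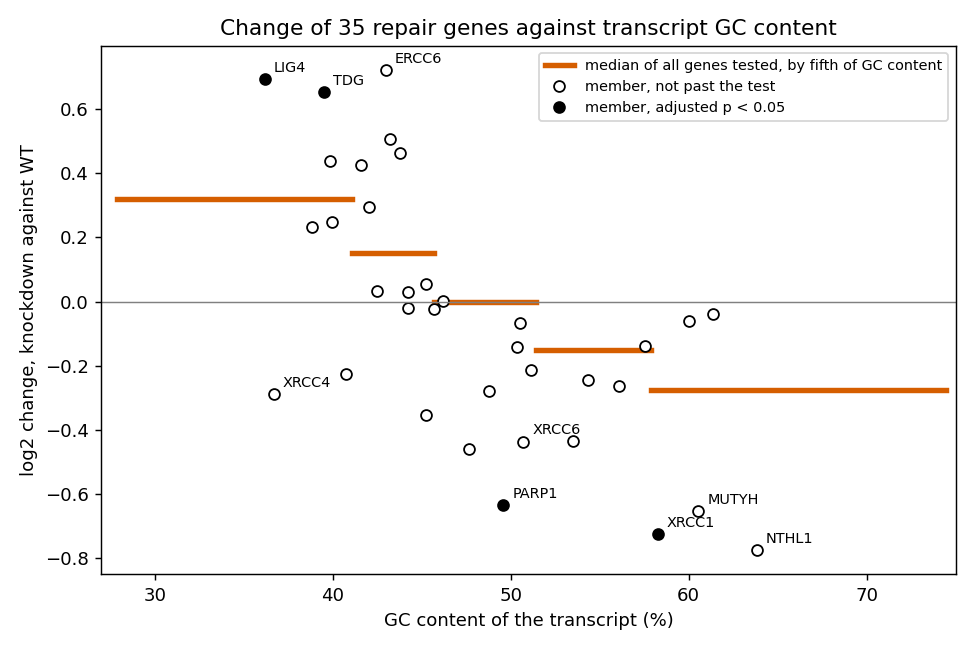
Log2 change of the 35 repair genes in knockdown against WT, plotted against the GC content (%) of the longest coding transcript. Filled points are the 4 genes with an adjusted p below 0.05, and bars are medians of all genes tested in 5 bins of GC content, from 0.32 to −0.28.

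Other genes of the same pathways fell mostly where they also serve DNA replication. Of 57 further genes of these pathways 0 rose, 11 fell and 46 did not pass the test (19.3% called, against 7.72% of all genes tested). Among 17 genes shared with replication, 9 fell and 0 rose, with a median log2 change of −0.66. POLD1, the catalytic subunit of polymerase delta, fell from 31.8 to 13.9 ± 0.878 CPM (SD, n = 2; log2 change −1.20 ± 0.20, SE). POLE, the catalytic subunit of polymerase epsilon, fell from 92.9 to 45.7 ± 8.20 CPM (−1.02 ± 0.18, SE), and the flap nuclease FEN1 from 47.0 to 24.5 ± 1.69 CPM (−0.94 ± 0.19, SE). All 17 had a fitted change below 0, from −1.20 to −0.12 (RPA3), and 16 were below WT with both hairpins.

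The median log2 change of the other 40 genes was 0.04. NEIL3, a glycosylase for oxidised bases, fell from 33.3 to 16.0 ± 1.95 CPM (log2 change −1.06 ± 0.21, SE; adjusted p = 0.00330, edgeR's quasi-likelihood test). Its transcript is low in GC (41.4%), and its change was −1.28 with the GC trend removed. Of 11 other end joining genes 0 passed, of 10 other base excision genes 1 fell (NEIL3), and of 2 other direct reversal genes 0 passed. Whether the replication genes differ from the members was not tested.

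**Figure D5:**
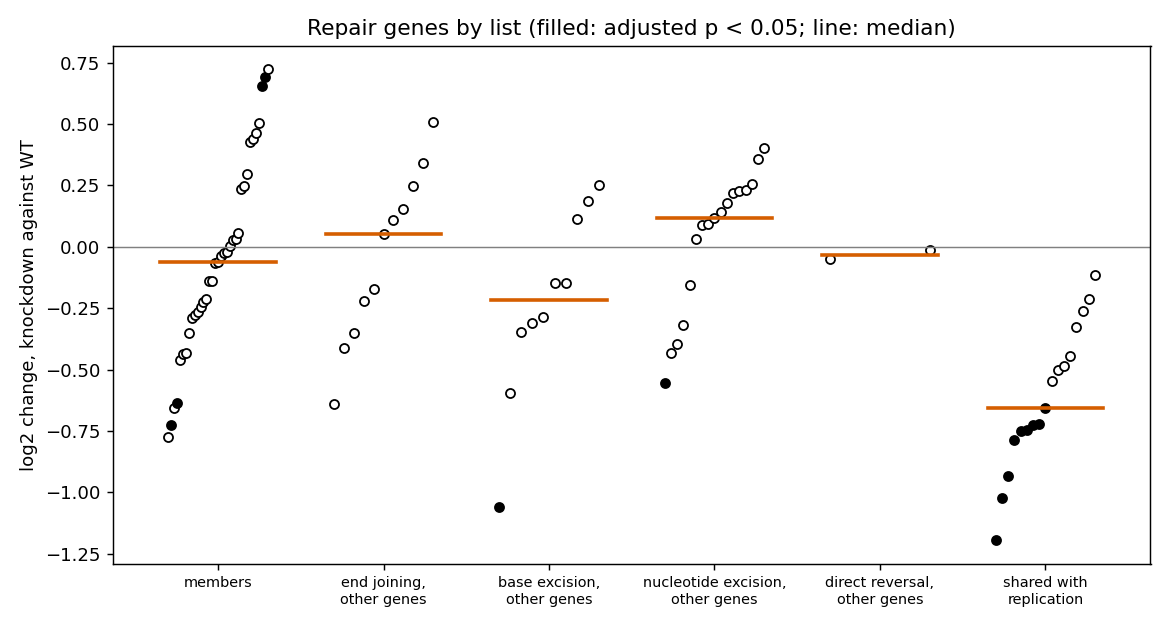
Log2 change of each gene in knockdown against WT, by list, for the 35 members and for the 57 further repair genes. Filled points have an adjusted p below 0.05 and lines are list medians; the 17 genes shared with replication all lie below 0, with a median of −0.66.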

How the data were processed

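RNA was measured in 3 libraries of TOV21G cells. Per the labels' protocols, total RNA was extracted with Trizol, treated with DNase and sequenced at 75 bases after a ScriptSeq complete Gold preparation. The authors deposited 1 column of estimated counts per library over Ensembl genes, all whole, so that rounding changed none. The submitters' processing notes list hg19, edgeR and RSEM 1.2.3 without saying what each was used for. Filters, annotation release and strand setting are not given in the sources used here. RSEM divides reads that fit several genes by a model.

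Of 57736 rows, 34038 had no count and 14524 passed filterByExpr. Differences were tested by the quasi-likelihood test of edgeR with TMM scaling (edgeR 4.0.16 in R 4.3.3), adjusted by Benjamini-Hochberg over all genes tested, on 1 residual degree of freedom and a learned prior of 18.9 degrees. The SE follows from the F statistic. For a single hairpin, log2 CPM (prior count 2) was compared with WT, untested. CPM used TMM-scaled totals, on which scale 3 counts, the upper limit for a gene without counts, equalled 0.262 to 0.301 CPM. Intervals cover counting error only. Length, GC content (known for 97.2% of genes tested), exon overlaps and shared 75-base sequences came from GENCODE 29 (GRCh38), used for annotation only because the counts rest on hg19. Promoter windows are RefSeq's. The fit was tested on simulated data for this comparison (14524 genes, 200 of them changed), with no GC trend put in. It found 16.4% of 1.5-fold, 49.3% of 2-fold and 89.4% of 4-fold changes and called 10 unchanged genes.

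Results that need items withheld for evaluation are not reported here. The 35 genes and all lists were chosen with earlier results of these data known. Values are given in full for genes that pass, and for the highest and lowest change of each role group. Alternatives were DESeq2 size factors, library size alone, upper quartile scaling, no filter, a minimum mean count of 50, the Wald test of DESeq2 1.42.0, removal of a GC trend by offsets, counts summed with genes that share at least 1% of a gene's 75-base sequences, and each hairpin left out.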

Additional observations from a re-analysis of the deposited data

How the results depend on the processing

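HDAC2, LIG4, TDG, PARP1 and XRCC1 kept their direction in every fit and with either hairpin left out. With no filter on low counts 0 of 23698 genes passed edgeR's test, and so 0 of the 35 repair genes and 0 of the 57 further genes. HDAC2 lost its call at −1.31 (adjusted p = 0.468, edgeR). At an unadjusted p below 0.05 that fit gave 2486, 8 and 13 genes, or 10.5% of the 23698 and 22.9% of the 35. The 23698 include genes under the count filter, which all 35 pass, so these shares are not over like genes. DESeq2's Wald test called 306 genes, 0 of the 24 repair genes for which it gave an adjusted p, and 4 of the further genes (1479, 5 and 13 at an unadjusted p below 0.05, or 10.2% of all genes and 14.3% of the 35). With the GC trend removed 556 genes passed, 463 of them among the 1121 of the main test, and 1 of the 35 repair genes (PARP1). That fit split its calls into 200 upwards and 356 downwards, against 575 and 546. Library size alone gave 868 upwards and 595 downwards, and called 5 of the 35 genes, ERCC6 being the added call (adjusted p = 0.0462, edgeR). LIG4 was lost with upper quartile scaling and at a mean count of at least 50 as well (adjusted p = 0.0571 and 0.0651, edgeR).

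Signs turned in 11 of the 35 genes, whose main changes lay between −0.14 and 0.25, and the cause was not tested. PMS2, at 0.0027, was −0.0015 with DESeq2 size factors, −0.0058 with upper quartile scaling, −0.0134 at a mean count of at least 50, −0.0016 by the Wald test and −0.0518 with the GC trend removed. Library size alone turned XRCC5 to 0.0131 and TP53BP1 to 0.0103. The GC trend removed turned PRKDC to −0.0271, NEIL1 to 0.2287, POLB to −0.0895, ERCC2 to 0.1896, ERCC4 to −0.0064, ERCC8 to −0.0599, RAD23B to −0.1452 and MGMT to 0.0765. The other 24 of the 35 genes kept their sign in all fits.

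Leaving out a hairpin leaves 1 library against 1, which gives values with no test. The HDAC2 change then lay between −1.65 and −1.03. No paired analysis was possible because the WT group has 1 library and shares fewer than 2 replicate numbers with the knockdown. In the simulation, which changed 200 of 14524 genes, the fit found 16.4% of 1.5-fold changes. In the data 1121 genes passed and changes moved with GC content, which that simulation left out. The share found and the number of unchanged genes called may thus differ there. With 1 WT library, changes near 1.5-fold can go undetected, and 5 of the 35 genes had under 100 counts in WT.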
